A study of Arabidopsis thaliana with 6 samples.

Results

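AACT1 (AT5G61160) and AT3G23550 are Arabidopsis thaliana genes for an acyltransferase of the BAHD family and for a membrane transporter of the MATE family. They were followed library by library in polyA-selected RNA of gemin2 mutant and wild-type (WT) plants. They were chosen by locus name, with their difference between the genotypes already known, and are 2 of the 33602 loci in the deposited gene count table. The gemin2 group holds 3 libraries of plants that carry the single mutant allele gemin2-1, as the deposited tables name it, and the WT group holds 3 libraries of the Col ecotype without it. Both groups were whole plants taken at an age of 9 days, after 4 days of stratification in the dark at 4 °C and growth on agarose medium at 22 °C in constant light. The labels name no pathogen, elicitor or hormone treatment for either group. One mutant allele is represented, and no complemented line is among the samples. Whole plants mix all organs, so the values have no cell type, and a change in the number of cells of a type and a change in RNA per cell cannot be told apart.

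GEMIN2 is a core subunit of the SMN complex, the machine that assembles spliceosomal small nuclear RNAs with their Sm proteins. AACT1 is annotated by sequence as an anthocyanin acyltransferase, and biochemical work on the same locus described it as agmatine coumaroyltransferase, which joins p-coumaroyl-CoA to the arginine-derived amine agmatine. The product, p-coumaroylagmatine, is a hydroxycinnamic acid amide, a class of small phenolic compounds that Arabidopsis makes in defence against pathogens. AT3G23550, known in the literature as DTX18, encodes a MATE efflux protein that exports such amides to the leaf surface, where they act against Phytophthora. The enzyme and the exporter therefore stand at the last steps of one defence pathway. Upstream of them, phenylalanine ammonia-lyase (PAL), cinnamate 4-hydroxylase (C4H) and 4-coumarate-CoA ligase (4CL) supply p-coumaroyl-CoA, and arginine decarboxylase (ADC) supplies agmatine. ORA59, an ethylene response factor (ERF), relays ethylene and jasmonate signals to defence genes, and ERF proteins bind the GCC box.

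In the deposited table AACT1 lies on chromosome 5 at 24608724 to 24610304, with 1581 exonic bases. AT3G23550 lies there on chromosome 3 at 8448273 to 8450697, with 1620 exonic bases. The RefSeq annotation gives AACT1 1 exon on the plus strand and AT3G23550 7 exons on the minus strand. The coding sequences of the RefSeq annotation on TAIR10.1 give proteins of 452 residues for AACT1 and 469 residues for AT3G23550. The 300 bases before each RefSeq transcript start are shown because they differ in the ERF binding motif. They are printed from 5′ to 3′ on the strand of the gene, from the RefSeq TAIR10.1 genome, with each GCC box (GCCGCC) in capitals.
AT5G61160, chr5:24608305-24608604, plus strand: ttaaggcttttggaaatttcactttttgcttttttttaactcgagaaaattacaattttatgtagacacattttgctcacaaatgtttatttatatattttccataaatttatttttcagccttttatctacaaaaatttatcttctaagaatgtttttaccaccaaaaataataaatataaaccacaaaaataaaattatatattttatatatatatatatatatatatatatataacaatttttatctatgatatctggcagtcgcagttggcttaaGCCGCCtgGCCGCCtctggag
AT3G23550, chr3:8450800-8451099, minus strand: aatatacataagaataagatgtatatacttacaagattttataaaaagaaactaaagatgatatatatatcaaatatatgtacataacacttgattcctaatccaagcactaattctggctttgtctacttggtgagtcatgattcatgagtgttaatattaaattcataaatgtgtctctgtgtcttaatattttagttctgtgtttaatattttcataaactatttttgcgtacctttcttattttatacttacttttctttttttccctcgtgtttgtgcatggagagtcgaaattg

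The AACT1 window holds 2 GCC boxes, which start 21 and 13 bases before the RefSeq transcript start and lie on the strand of the gene. The AT3G23550 window holds none. These distances depend on the annotation. RefSeq starts the AACT1 transcript at 24608605 and the count table further downstream at 24608724. For AT3G23550, on the minus strand, the starts are 8450799 in RefSeq and 8450697 in the count table. A search of both strands of the same window of 27438 RefSeq genes found a GCC box in 2.26% of them and 2 or more in 0.208%. The W box core (TTGAC), which WRKY factors bind, is in neither member's window and in 50.4% of all windows. The G box (CACGTG), which bHLH and bZIP factors bind, is also in neither and in 7.09% of all windows. The windows are rich in A and T, with 24.7% G and C for AACT1 and 26.7% for AT3G23550. These are matches of letters, and no file used here measures binding at them.

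The 6 libraries held 15467372 to 17217408 reads in genes in gemin2 and 14049163 to 16732098 in WT. The columns of the count table are named by the letters A, B and C within each genotype, and those letters name the libraries here. The mutated gene, GEMIN2 (AT1G54380), had 71, 77 and 74 reads in the gemin2 libraries (A, B, C), against 239, 262 and 221 reads in the WT libraries (A, B, C). Its log2 fold change was -1.82 (SE 0.0968, adjusted p = 4.46e-09, edgeR quasi-likelihood test), so the column labels match the genotype. RBCS1A (AT1G67090), a leaf gene for the small subunit of Rubisco, averaged 13507 CPM in gemin2 and 13929 CPM in WT. The labels do not state that the 3 libraries within a genotype are independent cultures, so p-values here measure only the spread between these libraries, which may be technical. Across the genome, 20762 loci passed the filter on low counts, and 36.7% of them passed an adjusted p of 0.05, 17.8% as higher and 18.9% as lower in gemin2.

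AACT1 RNA was far more abundant in every gemin2 library than in any WT library. It had 229, 206 and 146 reads in gemin2 libraries A, B and C, against 9, 3 and 8 reads in those of WT. Scaled to sequencing depth as CPM, reads per 1000000 gene reads of effective library size, that is 14.9, 11.9 and 8.98 CPM in gemin2, against 0.631, 0.178 and 0.572 CPM in WT. The gene was close to silent in the WT plants, and the groups do not overlap. The means were 11.9 ± 2.97 CPM in gemin2 and 0.461 ± 0.246 CPM in WT (SD, n = 3 each). The ratio of the means is 25.9, and the lowest gemin2 library was 14.2 times the highest WT library. The fitted log2 fold change was 4.72 (SE 0.295), which ranks 5th of the 20762 tested loci from the highest. The authors' deposited table gives the same log2 fold change of 4.72 for this locus. Since AACT1 was chosen for this difference, it is given as a description and no p is attached to it.

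The exporter AT3G23550 was also higher in every gemin2 library than in any WT library. It had 279, 281 and 163 reads in gemin2 libraries A, B and C, against 21, 38 and 31 reads in those of WT. In CPM these are 18.2, 16.3 and 10.03 in gemin2, against 1.47, 2.25 and 2.22 in WT. Again the groups do not overlap. The means were 14.8 ± 4.26 CPM in gemin2 and 1.98 ± 0.441 CPM in WT (SD, n = 3 each). The ratio of the means is 7.48, and the lowest gemin2 library was 4.45 times the highest WT library. The fitted log2 fold change was 2.89 (SE 0.231), the 20th from the highest among tested loci, and the authors' deposited table gives 2.89. This gene too was chosen for the difference, so no p is given. Over all tested loci, every gemin2 library lay above every WT library in 23.4%, and nothing is read from the members' place among them because the choice fixed it.

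**Figure D1:**
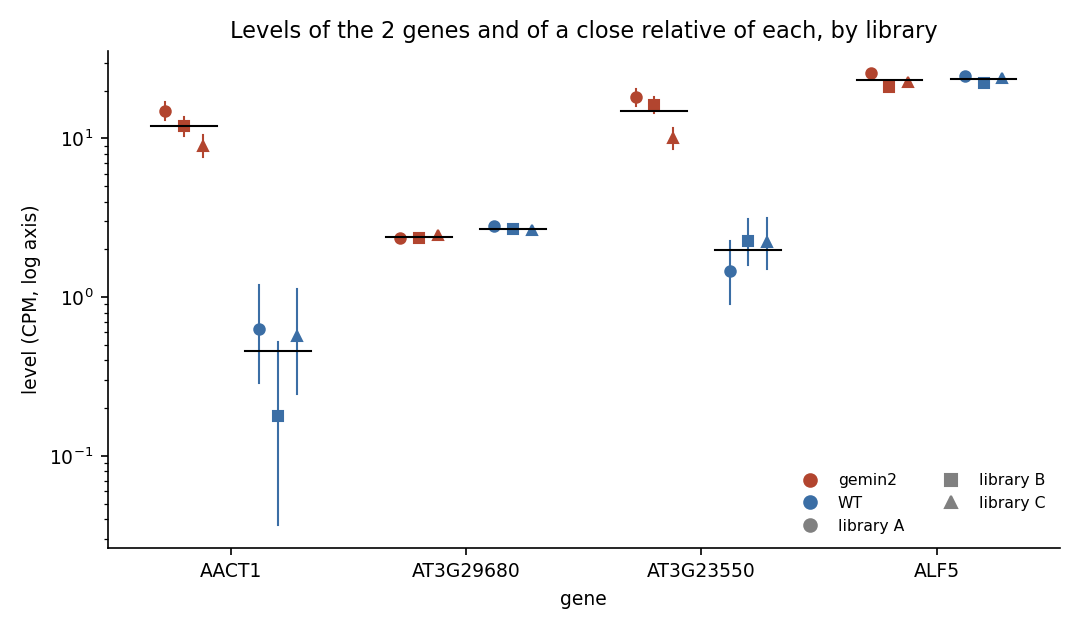
Level of AACT1, AT3G23550 and a close relative of each (AT3G29680, ALF5) in each library, in CPM on a log axis, with gemin2 left of WT. Points are libraries A, B and C, vertical bars (AACT1 and AT3G23550) are exact 95% Poisson intervals of the read count, and horizontal lines are group means. For AACT1 and AT3G23550 the 3 gemin2 points lie above the 3 WT points, and gemin2 library C is the lowest of the mutant points; the relatives lie near the same level in both genotypes.

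The low WT values carry the larger counting error. The exact 95% Poisson interval of AACT1 in WT library B, which rests on 3 reads, runs over 0.0367 to 0.520 CPM. In WT libraries A and C the AACT1 intervals are 0.289 to 1.2 and 0.247 to 1.13 CPM, so the 3 WT libraries cannot be ordered by AACT1. The 3 WT intervals of AT3G23550 also overlap, with 0.912 to 2.25 CPM in library A, 1.60 to 3.09 CPM in library B and 1.51 to 3.15 CPM in library C. These intervals cover counting error only.

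Among the mutant libraries the members varied by more than counting error. For AACT1 the interval of gemin2 library A is 13.0 to 17.0 CPM and that of library C 7.58 to 10.6 CPM, which do not overlap, while that of library B, 10.3 to 13.7 CPM, meets both. For AT3G23550 they are 16.1 to 20.4 CPM in library A, 14.4 to 18.3 CPM in library B and 8.55 to 11.7 CPM in library C, so library C lies apart. The highest gemin2 library was 1.66 times the lowest for AACT1 and 1.81 times for AT3G23550. Library C was the lowest of the 3 for both genes. It is the lowest gemin2 library for 34.3% of all tested loci and for 38.0% of those called higher, so a gene with library C lowest is common in these data. The coefficient of variation of AACT1 was 24.9% in gemin2 and 53.5% in WT, and that of AT3G23550 was 28.7% in gemin2 and 22.2% in WT.

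Per kilobase of exon the exporter stood above the enzyme in every library. AACT1 averaged 7.55 ± 1.88 CPM per kb in gemin2 and 0.291 ± 0.156 in WT, and AT3G23550 averaged 9.15 ± 2.63 CPM per kb in gemin2 and 1.22 ± 0.272 in WT (SD, n = 3 each). The ratio of AACT1 to AT3G23550 per kilobase was 0.841, 0.751 and 0.918 in the gemin2 libraries, against 0.439, 0.0809 and 0.264 in the WT libraries (A, B and C in each). The gap between the genes was thus smaller in each mutant library than in each WT library. As a share of the reads of both genes, AACT1 took 45.1%, 42.3% and 47.2% in gemin2 and 30%, 7.32% and 20.5% in WT. Summed over libraries the share was 44.6% in gemin2 (581 AACT1 reads against 723 of AT3G23550, exact binomial 95% interval 41.8% to 47.3%) and 18.2% in WT (20 against 90 reads, interval 11.5% to 26.7%). In single libraries the interval of WT library A, 14.7% to 49.4%, contains all 3 gemin2 shares, while those of WT library B, 1.54% to 19.9%, and WT library C, 9.30% to 36.5%, lie below them. The intervals of the summed reads cover counting error only and leave out the spread between libraries. WT libraries A and B, at 30% and 7.32%, lie outside the summed WT interval. All 3 gemin2 shares lie inside that of gemin2. The share follows from the 2 fold changes that chose the genes, so it is also a description.

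**Figure D2:**
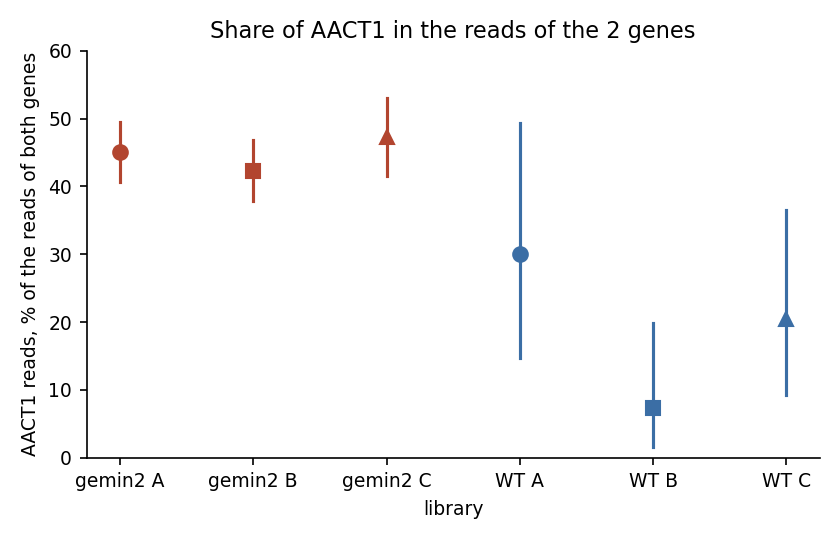
Reads of AACT1 as a percentage of the reads of AACT1 and AT3G23550 together, for each library, with gemin2 left of WT and exact binomial 95% intervals as bars. The gemin2 libraries lie between 42.3% and 47.2%, and the WT libraries between 7.32% and 30% with wide intervals.

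Set among all loci with reads, the members moved to the middle of the range. By CPM per kilobase, AACT1 was at percentiles 57.7, 52.2 and 46.3 in the 3 gemin2 libraries, against 17.6, 11.8 and 17.2 in the 3 WT libraries. AT3G23550 was at percentiles 62.3, 59.4 and 48.1 in gemin2, against 23.1, 26.7 and 26.7 in WT. Neither gene became one of the abundant transcripts of the plant. No splicing bin of either gene is among the 7973 bins of the table used here, and no intron among the 65535 intron rows, which are held in part. Splicing of the 6 introns of AT3G23550 was therefore not analysed here, and AACT1 has no intron.

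The nearest copy of each member had similar levels in both genotypes. The MATE gene ALF5 (AT3G23560) lies beside AT3G23550, and its protein is identical at 85.3% of the residues of AT3G23550. ALF5, named for a root phenotype and linked to resistance to toxins, had 394, 366 and 370 reads in gemin2 libraries A, B and C, against 352, 378 and 333 reads in WT. Its log2 fold change was -0.03 (SE 0.0758, adjusted p = 0.805, edgeR). The protein nearest to AACT1 in the family lists, that of AT3G29680, is identical at 67.0% of residues. AT3G29680 had 36, 41 and 40 reads in gemin2 against 40, 45 and 37 in WT. Its log2 fold change was -0.18 (adjusted p = 0.478, edgeR). In CPM its gemin2 libraries, at 2.34 to 2.46, all lay below its WT libraries, at 2.65 to 2.81. Such a separation was seen in 24.7% of all tested loci. The next, AT3G29635 at 58.4% identity, had 2, 2 and 3 reads in gemin2 against 0, 4 and 0 in WT and was not tested.

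How reads with several matches were counted is not given in the sources used here, so the sharing of sequence was measured. Of the 1690 windows of 36 bases in AACT1 transcripts, 0 occur elsewhere in the genome. Of 1477 such windows in AT3G23550, 13 occur elsewhere, which is 0.880%, and 0 of 1379 windows of 50 bases do. Only exact matches of windows within single exons were counted. Reads placed with mismatches or across exon junctions are not covered. In the RefSeq annotation the transcript of AT3G23550 overlaps that of its neighbour AT3G23540, while the spans in the count table do not overlap. AT3G23540 had a log2 fold change of -0.22 (SE 0.0679, adjusted p = 0.0208, edgeR), opposite in sign to AT3G23550.

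The loci beside the members showed much smaller differences. Of the 5 loci on each side of AACT1, 7 were tested. VIP4, directly before it, rose by 0.34 on the log2 scale (SE 0.0555, adjusted p = 0.000252, edgeR), AT5G61190 fell by 0.21 (adjusted p = 0.0249), and 5 did not pass. All 10 neighbours of AT3G23550 were tested, of which AT3G23530 rose by 0.12 (adjusted p = 0.0383), AT3G23480 fell by 0.56 (adjusted p = 0.00177), AT3G23600 fell by 0.31 and AT3G23540 fell as given above. Together 2 of 17 neighbours were called higher and 4 lower, beside 17.8% and 18.9% of all tested loci. DESeq2 called 1 higher and 2 lower. The calls of AT5G61190, AT3G23530 and AT3G23540 were lost there and in 3 to 5 of the 6 fits with 1 library left out. The log2 fold changes of the neighbours lie between -0.56 and 0.34, against 4.72 for AACT1 and 2.89 for AT3G23550.

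**Figure D3:**
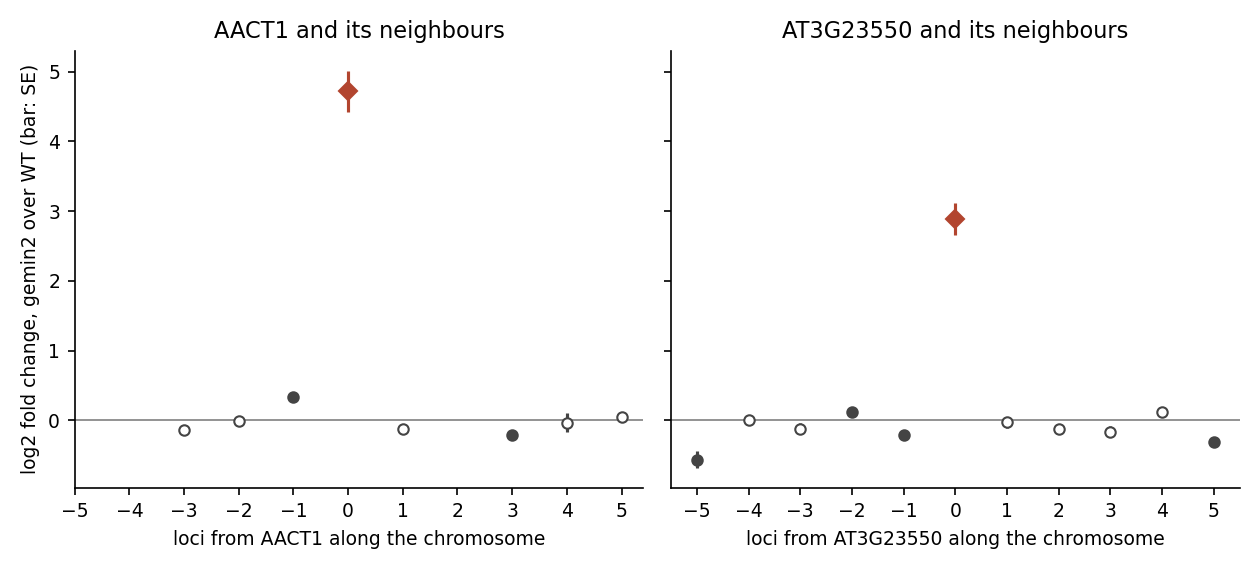
Log2 fold change, gemin2 over WT, of AACT1 and AT3G23550 and of the 5 loci on each side of each, in chromosomal order. The members are red diamonds, bars are SE derived from the edgeR test, and filled points among the neighbours passed the adjusted p of 0.05. The members stand at 4.72 and 2.89, and their tested neighbours between -0.56 and 0.34.

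Genes that supply p-coumaroyl-CoA, the phenolic substrate of AACT1, changed little and in both directions. Of 9 tested, 2 rose (22.2%, beside 17.8% of all tested loci), 4 fell (44.4%, beside 18.9%) and 3 did not pass. Their median log2 fold change was -0.12 beside -0.00105 for all tested loci. This list and those below were chosen with earlier results of these data known, so their shares are descriptions. PAL4, one of the PAL isoenzymes that open the phenylpropanoid pathway, had 32.4 ± 0.769 CPM in gemin2 and 22.2 ± 1.89 CPM in WT (SD, n = 3 each). Its log2 fold change was 0.54 (SE 0.0677, adjusted p = 1.98e-05, edgeR). PAL3 rose by 0.44 on that scale (adjusted p = 0.000339). The more abundant PAL1, with 347.7 ± 14.4 CPM in gemin2 and 399.8 ± 11.2 CPM in WT, fell by 0.20 (adjusted p = 0.00462). All 3 ligase genes 4CL1 to 4CL3 (AT1G51680, AT3G21240 and AT1G65060) fell, 4CL3 the most with 0.36 (adjusted p = 0.00141). Without gemin2 library B the count that fell was 2, and the 4CL1 call was lost (adjusted p = 0.0694, edgeR). The 4CL2 call was lost under DESeq2 (adjusted p = 0.0790) and without WT library A, WT library B or gemin2 library B (0.0878 to 0.107). PAL2 at -0.12, C4H at 0.04 and 4CL5 at 0.12 did not pass.

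The agmatine and polyamine genes were called in shares not far from those of all tested loci. Of the genes listed, only ADC1 and ADC2 make agmatine, the amine substrate of AACT1. Of 14 tested, 4 rose (28.6%, beside 17.8% of all tested loci), 3 fell (21.4%, beside 18.9%) and 7 did not pass, with a median of -0.06. ADC1 (AT2G16500), which makes agmatine by decarboxylating arginine, had 214.7 ± 4.26 CPM in gemin2 and 192.9 ± 7.29 CPM in WT, a log2 fold change of 0.15 (SE 0.0459, adjusted p = 0.0155, edgeR). ADC2 (AT4G34710), the stress-responsive copy, had 0.18 and did not pass (adjusted p = 0.0971). The ADC1 call was lost without WT library A, WT library B or gemin2 library C, at adjusted p of 0.0502 to 0.0709, and without WT library B only 2 genes of the list rose. ARGAH2, an arginase that draws arginine away from agmatine, had 53.4 ± 7.75 CPM in gemin2 and 105.7 ± 16.4 CPM in WT (SD, n = 3 each). Its log2 fold change was -0.99 (SE 0.101, adjusted p = 2.97e-06, edgeR). It showed the largest difference of the called genes of this list and the p-coumaroyl-CoA list. The agmatine deiminase gene AIH (AT5G08170), which starts the conversion of agmatine to putrescine, had -0.15 and did not pass (adjusted p = 0.0624). The spermidine synthase genes SPDS1 and SPDS2 fell by 0.16 and 0.28, and the S-adenosylmethionine decarboxylase genes SAMDC and AT5G15950 and the thermospermine synthase gene ACL5 rose by 0.16, 0.30 and 0.32 in that order. Of these, SPDS1 and SAMDC lost their calls when single libraries were left out.

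None of the tested genes of other amide conjugates passed the threshold in either direction. SHT and SDT, acyltransferases for spermidine conjugates of pollen and seed, and the methyltransferase gene TSM1 of the anther had no reads in any of the 6 libraries. Of the 9 genes listed 5 were tested, and 0 rose and 0 fell by edgeR, with 0 at an unadjusted p under 0.05 and 0 by DESeq2. NATA1, an acetyltransferase that acts on ornithine, had 5, 13 and 171 reads in gemin2 libraries A, B and C, against 3, 69 and 6 reads in WT. Its log2 fold change of 1.18 (SE 0.909, adjusted p = 0.335, edgeR) rested on single libraries, being -1.61 without gemin2 library C and 3.57 without WT library B. The pattern of NATA1 over libraries thus differs from that of the members, for which gemin2 library C was the lowest mutant library.

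Regulators of the ethylene and jasmonate branch rose or did not pass. Of 8 tested, 5 rose, which is 62.5% beside 17.8% of all tested loci. By edgeR 0 fell, with 0 lower at an unadjusted p under 0.05 and 0 by DESeq2. Earlier results of these data were known when the list was chosen, so its share is a description. ORA59 had 63, 82 and 34 reads in gemin2 libraries A, B and C, against 26, 20 and 15 reads in WT. Its log2 fold change was 1.43 (SE 0.300, adjusted p = 0.00167, edgeR), with 3.65 ± 1.38 CPM in gemin2 and 1.36 ± 0.405 CPM in WT, and gemin2 library C was again the lowest mutant library without reaching the WT range. EIL1 and EIN3, transcription factors of the ethylene response, rose by 0.50 (adjusted p = 3.05e-06) and 0.31 (adjusted p = 7.23e-05). ERF2 had a log2 fold change of 0.59 (adjusted p = 0.0192) and ERF104 one of 0.55 (adjusted p = 0.0397), and the groups overlap for both. ERF104 lost its call under 6 settings, with adjusted p of 0.0514 under DESeq2, 0.134 in the robust fit and 0.135 to 0.150 without WT library A, WT library C, gemin2 library A or gemin2 library B. ERF2 lost its call without WT library A, WT library C or gemin2 library B (adjusted p of 0.0755 to 0.0897). ERF5 at 0.30, ERF6 at 0.40 and MYC2 (AT1G32640) at -0.05 did not pass, and ERF1, a parallel integrator to ORA59, had 2, 1 and 0 reads in gemin2 against 2, 3 and 1 in WT. Without WT library A, WT library C or gemin2 library B the count of higher genes was 3, and it was 7 without gemin2 library C.

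**Figure D4:**
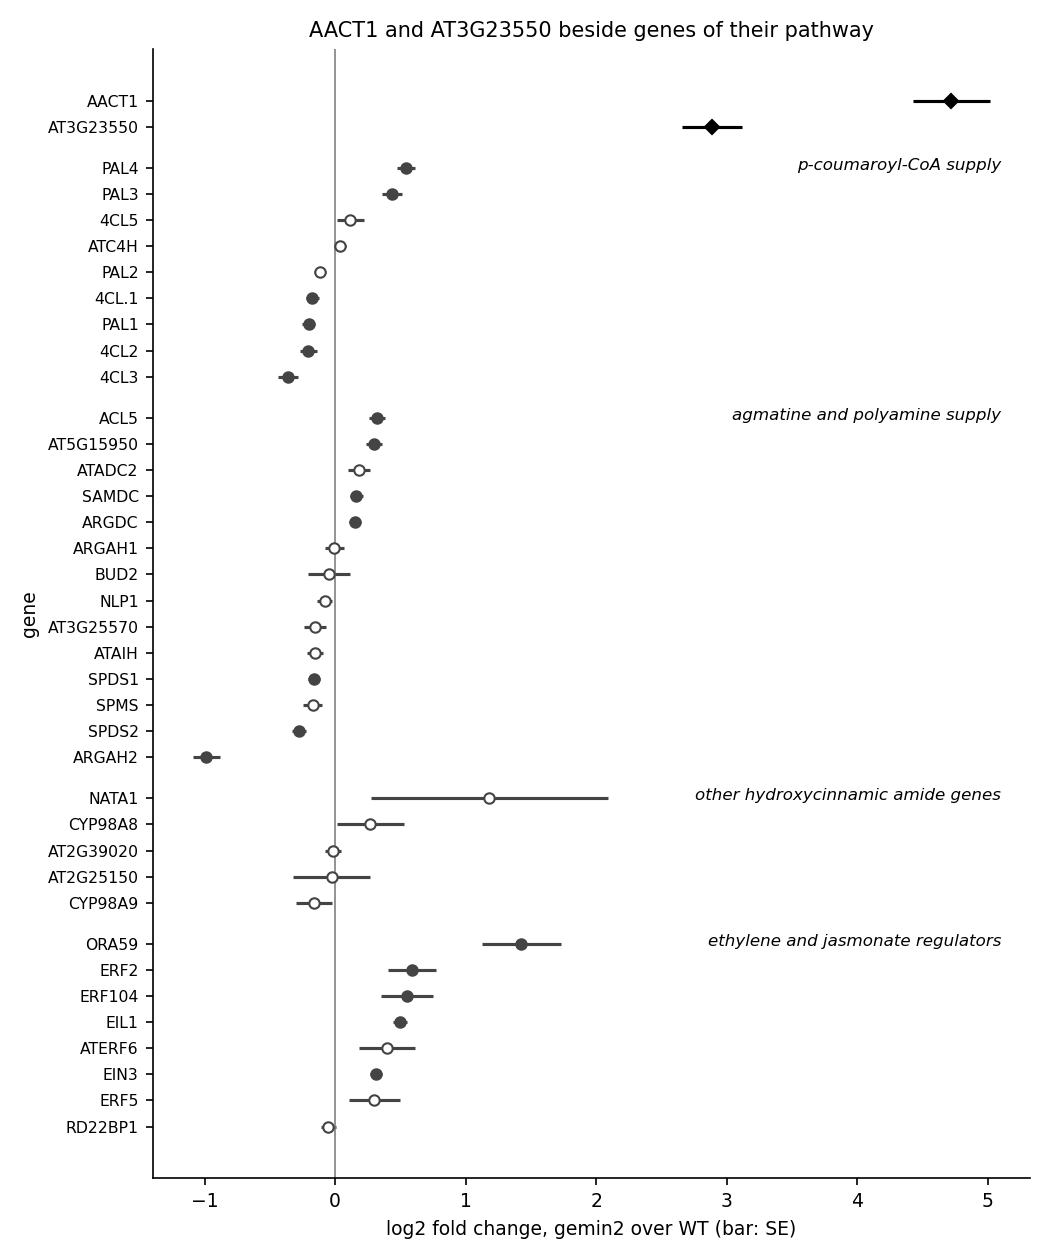
Log2 fold change, gemin2 over WT, for the members and tested listed genes, with bars of SE derived from the edgeR test. The lists are those of p-coumaroyl-CoA, agmatine and polyamine, other amide and regulator genes. Symbols are those of the deposited table (ATC4H is C4H, 4CL.1 is 4CL1, ARGDC and ATADC2 are ADC1 and ADC2, ATAIH is AIH, ATERF6 is ERF6, RD22BP1 is MYC2). Diamonds are the members, and filled circles passed the adjusted p of 0.05. AACT1 at 4.72 and AT3G23550 at 2.89 lie right of all listed genes, ORA59 is at 1.43 and ARGAH2 at -0.99.

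Within their families the members stood higher in gemin2 than in WT. This follows from the difference that chose them and is a description. By mean CPM per kilobase AACT1 was 20th of 57 BAHD genes in gemin2 and 46th in WT, with HCT, an enzyme of lignin synthesis, on top at 118.8 in gemin2 and 104.9 in WT. AACT1 held 1.21% of the reads of the family in gemin2 and 0.0471% in WT. AT3G23550 was 18th of 57 MATE genes in gemin2 and 41st in WT, with 1.34% of the family's reads in gemin2 and 0.180% in WT.

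Of the other 45 BAHD genes tested, 26 did not pass, and the median log2 fold change was -0.02. Of the 45, 11 rose (24.4%, beside 17.8% of all tested loci) and 8 fell (17.8%, beside 18.9%). The highest of these, GLC (AT1G65450), reached 1.32 (SE 0.142, adjusted p = 4.7e-06, edgeR), with 10.2 ± 1.46 CPM in gemin2 and 4.07 ± 0.548 CPM in WT. The next were AT1G78990 at 1.03 and EMB3009 (AT5G23940), also called DCR and needed for cutin, at 0.86. The lowest were 5MAT (AT3G29590) at -2.19, AT1G03940 at -1.89 and AT1G03495 at -1.59. RefSeq names all 3 only as acyltransferases of the family, and from the literature 5MAT is a malonyltransferase and the others coumaroyltransferases of anthocyanins. For 5MAT the means were 2.82 ± 0.683 CPM in gemin2 and 12.8 ± 2.15 CPM in WT (adjusted p = 1.61e-07). AACT1, whose symbol stands for an anthocyanin acyltransferase, had the opposite sign to these 3 genes.

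Of the other 46 MATE genes tested, 24 did not pass, and the median was -0.09. Of the 46, 9 rose (19.6%, beside 17.8% of all tested loci) and 13 fell (28.3%, beside 18.9%). Under DESeq2 the count that fell was 7, and without gemin2 library B it was 8. The highest, AT2G04070 at 2.40 (SE 0.536, adjusted p = 0.00259, edgeR), rested on 47, 16 and 18 reads in gemin2 against 5, 7 and 2 in WT. The value was 1.69 without gemin2 library A and 2.71 without WT library B. AT2G04050 had 2.11 (adjusted p = 0.000121), and these near neighbours could share reads. Both lie below the 2.89 of AT3G23550. AT1G73700, the third nearest protein to AT3G23550 at 39.7% identity, was the lowest at -1.23 (adjusted p = 0.00108). The third highest was AT1G66760 at 0.86, and AT5G44050 at -0.86 and AT2G04066 at -0.73 followed AT1G73700 from the low end, of which AT2G04066 missed the threshold under DESeq2.

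**Figure D5:**
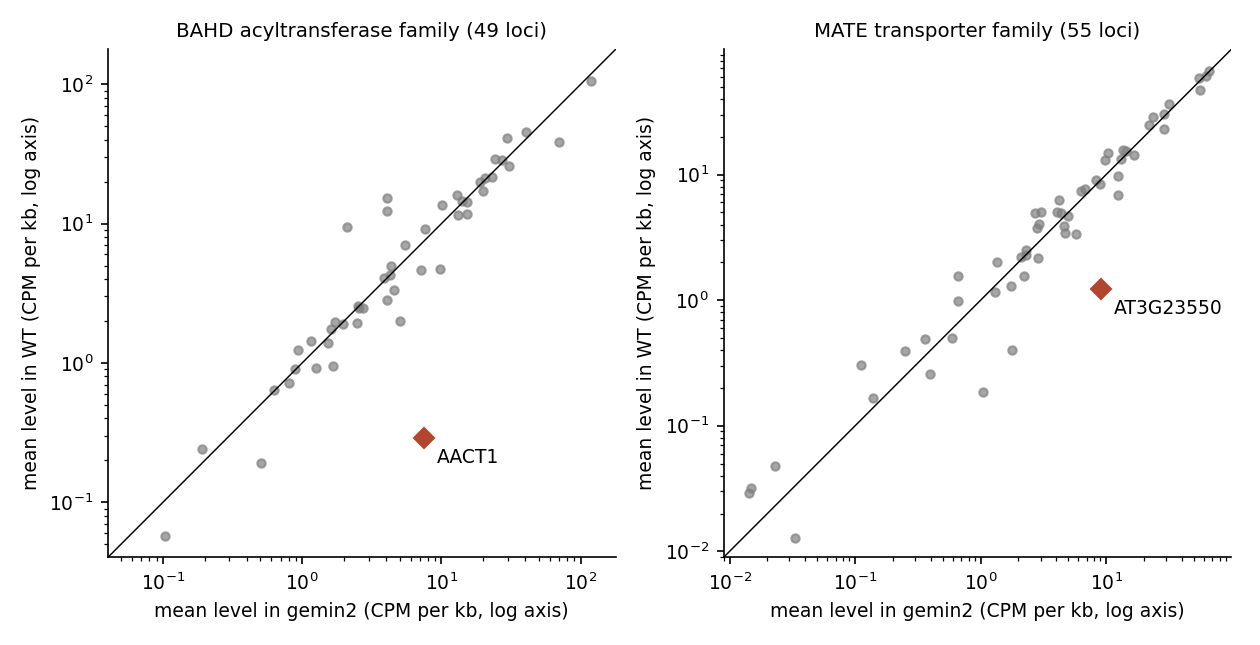
Mean CPM per kilobase of exon in gemin2 (horizontal, log axis) and in WT (vertical, log axis) for each BAHD gene and each MATE gene with reads in both genotypes, with the diagonal of equal level. AACT1, at 7.55 in gemin2 and 0.291 in WT, and AT3G23550, at 9.15 in gemin2 and 1.22 in WT, lie far to the gemin2 side of the diagonal.

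The genes whose centred log2 CPM profile over the 6 libraries was most like that of each member were found by the root mean square difference, among 20130 loci. This is a description, and the genotype difference that chose the members is part of the measure. For AACT1 the nearest were AT5G53740 at a difference of 0.71, PLA-IIA (AT2G26560) at 0.77, PDF1.2c at 0.78, the noncoding AT1G15405 at 0.88 and PDF1.2b at 0.88. PDF1.2b and PDF1.2c encode plant defensins and resemble each other closely, so their reads may be split between them. PDF1.2c had 48, 66 and 27 reads in gemin2 libraries A, B and C, against 0, 2 and 0 reads in WT, and PDF1.2b had 27, 39 and 20 in gemin2 against 1, 2 and 0 in WT. Of the genes nearest to either member, 7 have a 300-base window in the search, and 1 of these, that of PDF1.2b, holds a GCC box. Among 146 genes of the p-coumaroyl-CoA, agmatine and polyamine, family and regulator lists 3 windows hold one, beside 2.26% of all windows searched. They are those of ORA59, of the BAHD gene AT1G03940, which was lower in gemin2 at -1.89, and of the MATE gene AT1G15150.

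For AT3G23550 the nearest were the pseudogene AT3G32925 at 0.23, the histone gene HTR11 at 0.31, PLA-IIA at 0.32, TASTY at 0.38 and the receptor-like protein gene RLP33 at 0.40. TASTY (AT1G54040) encodes the epithiospecifier protein, which directs the products of glucosinolate breakdown, and PLA-IIA a patatin-like lipid hydrolase induced by pathogens. PLA-IIA, the only gene among the 5 nearest to both members, had 188, 199 and 150 reads in gemin2 libraries A, B and C, against 19, 17 and 19 reads in WT. The spans of AT5G53740 and AT3G32925 overlap another locus, so their reads are uncertain. The members differ from each other by 0.99 on this scale, which puts AT3G23550 10th from AACT1 and AACT1 233rd from AT3G23550.

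Root markers were examined because the share of root in whole plants may differ and ALF5 and other MATE genes are known from roots. Of 10 listed, 9 were tested, with a median of 0.19. Of these 4 rose (44.4%, beside 17.8% of all tested loci) and 2 fell (22.2%, beside 18.9%). The higher ones were SCR, PHO1, GL2 and CASP1, by 0.21 to 0.24 on the log2 scale. The lower ones were IRT1 by 0.68 and RHD6 by 1.07. Without gemin2 library B 2 rose, and CASP1 missed the threshold under DESeq2 and without WT library C, gemin2 library A or gemin2 library B. SWEET3 was at 0 in all 6 libraries. Their summed level was 429.7 to 483.2 CPM in gemin2 and 524.4 to 564.6 CPM in WT, lower in each mutant library. That direction rests on the iron transporter gene IRT1: without it the sum was 244.8 to 259.3 CPM in gemin2 and 212.1 to 226.8 CPM in WT, higher in each mutant library. Whole plants do not show in which organ the RNA of these markers was made, so neither sum measures the share of root. The part of organ composition in the levels of AACT1 and AT3G23550 was not tested.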

How the data were processed

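PolyA-selected RNA was sequenced from 3 gemin2 and 3 WT libraries, made with a TruSeq kit and 12 PCR cycles, per the labels. The deposited values are raw read counts per gene; TopHat2 2.0.9, R 3.0.2, edgeR 3.4.2 and TAIR10 are named in the submitters' processing notes. For the counting tool, strand setting and multiply mapped reads, nothing is stated in those sources. The authors' deposited table of changed genes holds log2 fold changes and p-values (false discovery rates), of which only the members' log2 fold changes were used; exonic lengths come from the count table.

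Counts were normalised by TMM and tested with the quasi-likelihood F test of edgeR 4.0.16 (R 4.3.3) on the 20762 loci kept by filterByExpr (minimum count 10), genotype as the only term, adjusted by Benjamini-Hochberg and called at 0.05. The test was checked on simulated counts. SE is the absolute log2 fold change divided by the square root of the F statistic, so it restates that test. CPM uses TMM library sizes. Profile likeness used log2 CPM of loci with a mean above 0 on that scale. The alternatives were DESeq2 1.42.0, other scalings and filters, leaving out each library and, added after seeing the data, a block on the column letter. Members and gene lists were chosen with earlier results of these data known. Named family genes are the 3 highest and 3 lowest that passed, and the nearest copies and profiles are the closest by rank. Coordinates of TAIR10 introns were checked against RefSeq TAIR10.1: 98.5% begin with GT and end with AG there. The tables of splicing bins and introns held no row of either member, so the planned tests of those gave no value. No sample column was left unused.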

Additional observations from a re-analysis of the deposited data

How the results depend on the processing

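AACT1 and AT3G23550 kept their direction in every setting tried, with log2 fold changes of 4.29 to 5.03 and 2.72 to 3.10 when 1 library was left out. Over the other settings the values were 4.71 to 4.74 and 2.88 to 2.90. No label ties the column letters to the replicate numbers or says that a letter pairs libraries. Deviations of same-letter libraries correlated at -0.06 to -0.01 across genes, so the letters were not taken as pairs. A fit with the letter as a replicate block, added after seeing the data, gave 3639 loci higher and 3873 lower and 4.72 and 2.89 for the members; it changed 1 call, AT3G23530 (adjusted p = 0.0540), so 1 neighbour was higher. With 1 library left out, 3014 to 3297 loci were higher and 3267 to 3520 lower. The counts over lists then ran as follows. Lower p-coumaroyl-CoA genes were 2 to 4 (2 without gemin2 library B). Higher agmatine and polyamine genes were 2 to 5 (2 without WT library B). Lower MATE genes were 8 to 14 (8 without gemin2 library B). Higher ethylene and jasmonate regulators were 3 to 7 (3 without WT library A, WT library C or gemin2 library B). Higher root markers were 2 to 5 (2 without gemin2 library B). Higher neighbours were 1 to 2 (1 when any library other than WT C was left out). Lower neighbours were 2 to 4 (2 without WT library A or gemin2 library A). DESeq2 called 7 MATE genes lower, 1 neighbour higher and 2 lower, and with no filter 1 neighbour was higher; the cause was not tested. The signs turned for 3 genes that did not pass: ALF5 (AT3G23560) ran over -0.10 to 0.036 with 1 library left out, AT3G29670 over -0.00495 to 0.31, and NATA1 (AT2G39030) over -1.61 to 3.57, with -1.61 without gemin2 library C. Of 53 called single genes, 14 lost the call under 1 or more settings. Among them ERF104 lost it under 6 settings (adjusted p of 0.0514 to 0.150), ERF2 under 3 (0.0755 to 0.0897) and 4CL2 under 4 (0.0790 to 0.107). The few WT reads of AACT1 limit the precision of its fold change.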
